A study of Mus musculus with 9 samples.

Results

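The genes of major histocompatibility complex (MHC) class I and class II antigen presentation were followed in the mouse retina after laser-induced retinal vein occlusion (RVO). They were all rows of the gene count table whose symbol starts with H2-, the prefix of the mouse MHC, together with B2m, Tap1, Tap2, Tapbp, Psmb8, Psmb9, Psmb10, Cd74, Ciita and Nlrc5. This gave 55 of the 48587 genes of the table. A gene was kept when it had 10 or more counts in at least 3 of the 9 samples, which left 31 genes: 23 of the class I pathway, 7 of the class II pathway and H2-Ke6, which lies in the region but is no MHC chain. Of the 24 genes not kept, 10 had 0 counts in all 9 samples.

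RNA was taken from retinas of C57BL/6J mice at 12 weeks of age, and each of the 9 RNAseq samples was a pool of 6 retinas. In 3 RVO pools the large retinal veins had been closed by laser after photosensitization with eosin Y, and the retinas were collected 2 days later (d2). In 3 control pools of d2 the same laser had been aimed between the large vessels of the contralateral eyes, so that the control eyes carried laser lesions, the dye and the anesthesia too, in the mice whose other eye had RVO. The 3 untreated pools came from eyes without laser treatment. Library totals were 21022997 to 28993921 counts in RVO pools, 18897218 to 23419497 in control pools and 12377572 to 15245869 in untreated pools, so the depth moved with laser treatment. The pools were retina by their rod markers, whose 5 genes summed to 41009 to 45005 CPM in RVO, 51094 to 62622 CPM in control and 79498 to 81420 CPM in untreated eyes. CPM here are counts divided by library size and scaled by the trimmed mean of M-values (TMM), with pools 1, 2 and 3 of a group in this order. Changes are log2 fold changes ± SE of edgeR's quasi-likelihood test, with n = 3 pools per group, p-values adjusted by Benjamini-Hochberg over all genes tested and a threshold of 0.01.

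MHC class I molecules consist of a polymorphic heavy chain and the light chain beta-2-microglobulin (B2m), and show peptides from inside the cell to CD8+ T cells. The peptides are cut by the proteasome, of which the immunoproteasome is an interferon-inducible form, carried into the endoplasmic reticulum by the transporter TAP and loaded with the help of tapasin. Class II molecules are alpha and beta chain pairs that show peptides of endocytosed protein to CD4+ T cells and are mostly made by professional antigen-presenting cells. NLRC5 and CIITA are the transactivators of class I and class II genes, and both work through proteins bound to a conserved promoter module, the S, X and Y boxes. The healthy retina is known for its low MHC levels.

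Letters of the X2 and Y boxes of this module were searched in the reference sequence of the members. RefSeq promoters of build GRCm38.p6, from 250 bases before to 50 bases after a gene's start, were found for 23 of the 31 kept genes. The letters TGACG, the core of the X2 box, were followed after 10 to 30 bases by ATTGG, the core of the Y box, in 6 of these 23 genes (B2m, H2-K1, H2-D1, H2-Q7, H2-M3 and H2-Aa) and in 0.84% of 27025 genes with a promoter, both strands searched. The gap was 19 bases in H2-Q7, 20 in H2-K1, H2-D1, B2m and H2-M3, and 21 in H2-Aa. Shown are the bases from 130 to 2 ahead of the first listed start for the class I heavy chain H2-K1, the light chain B2m and the class II alpha chain H2-Aa, and the stretch from motif to motif for the others, because these hold both motifs of the pair. They run 5′ to 3′ on the gene's strand, with both motifs in capitals.
H2-K1, chr17:34000349-34000477, minus strand: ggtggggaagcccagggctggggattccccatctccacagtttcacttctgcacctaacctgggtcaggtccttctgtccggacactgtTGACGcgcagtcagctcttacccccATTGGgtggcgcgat
B2m, chr2:122147557-122147685, plus strand: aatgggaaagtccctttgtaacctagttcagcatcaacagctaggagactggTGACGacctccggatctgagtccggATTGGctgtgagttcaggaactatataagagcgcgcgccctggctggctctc
H2-Aa, chr17:34287825-34287953, minus strand: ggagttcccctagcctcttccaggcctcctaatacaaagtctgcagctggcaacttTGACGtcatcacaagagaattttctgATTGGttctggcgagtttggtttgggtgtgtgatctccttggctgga
H2-D1, chr17:35262993-35263022, plus strand: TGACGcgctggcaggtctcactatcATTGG
H2-Q7, chr17:35439091-35439119, plus strand: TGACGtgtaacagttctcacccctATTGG
H2-M3, chr17:37270188-37270217, plus strand: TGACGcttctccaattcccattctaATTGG

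Taken alone, TGACG was present in 10 of 23 members and 23.0% of all genes, and ATTGG in 19 of 23 members and 41.1% of all genes. The letters GAAANNGAAA of an interferon-stimulated response element were in 3 members (B2m, H2-T23 and H2-T22) and 3.99% of all genes. The letters TTCNNNGAA of a STAT site were in 2 members (Psmb8 and H2-M3) and 9.55% of all genes. A match describes these letters in this window and no bound factor. The H2-D1 stretch lies in an exon of a longer H2-D1 transcript of GENCODE vM21.

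First it was asked how far the class I pathway moved with laser treatment at all. Class I genes were strongly higher at d2 both in RVO eyes and in control laser-treated eyes than in untreated eyes, from the transactivator Nlrc5 through transporter, tapasin and immunoproteasome to the heavy chains. Of the 15 class I genes with 10 or more counts in each untreated pool, 13 rose in RVO eyes and 12 in control eyes, and 0 fell in either by edgeR or by DESeq2. The heavy chains H2-T24 and H2-M5 did not pass the test in either comparison, and the light chain B2m did not in control eyes. Among all genes tested, 27.4% were called higher and 24.6% lower with RVO, and 27.2% higher and 25.2% lower with control laser. The median log2 fold change of these 15 genes was 2.13 for RVO and 2.05 for control laser, beside 0.01 over all genes in both comparisons. Of all 23 kept class I genes, 21 were called higher with RVO and 18 of the 21 that could be tested with control laser, but 9 of the 31 kept genes had fewer than 10 counts in every untreated pool and passed the filter only through the laser-treated pools. Both comparisons share the untreated pools.

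**Figure D1:**
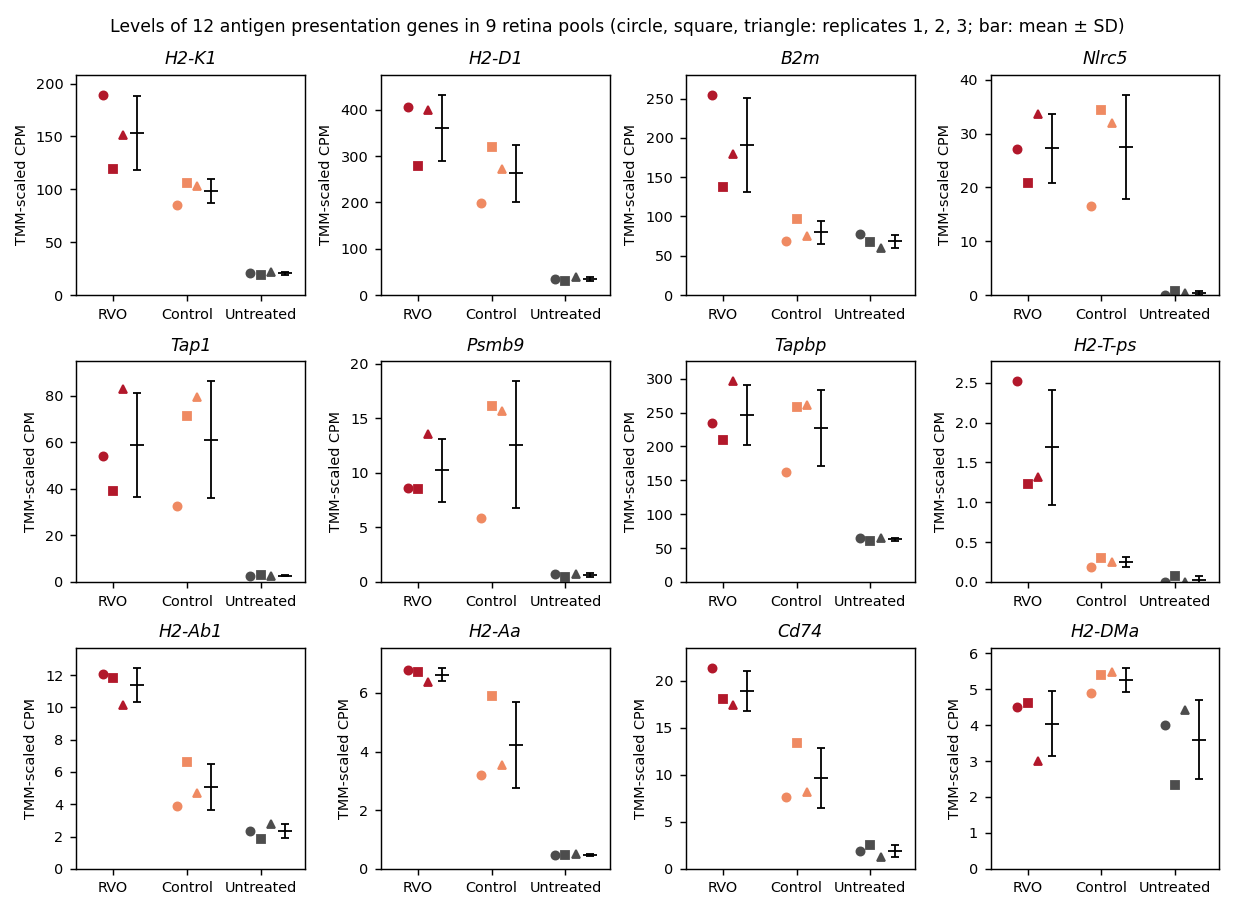
TMM-scaled CPM (linear axes from 0) of 8 class I and 4 class II genes in each of the 9 retina pools, with group mean and SD as a bar. Laser-treated pools lie above all untreated pools except for B2m in control eyes and H2-DMa in RVO eyes. Among the genes shown, only for B2m, H2-K1, H2-T-ps and the 3 class II genes H2-Ab1, H2-Aa and Cd74 do all RVO pools lie above all control pools. The share of all genes separated in this way was not computed.

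The transactivator Nlrc5 (chr8:94434356-94527272, GRCm38, GENCODE vM21) drives class I genes and was at 27.2, 20.9 and 33.6 CPM in RVO eyes, 16.5, 34.3 and 31.9 CPM in control laser-treated eyes and 0.0908, 0.781 and 0.357 CPM in untreated eyes. The untreated values rested on 1, 10 and 5 counts. The log2 fold change was 6.02 ± 0.39 (adjusted p = 1.3e-05) for RVO and 6.02 ± 0.43 (adjusted p = 2.4e-07) for control laser. This was the largest log2 fold change of any kept member in both comparisons, and Nlrc5 is among the top genes that the study itself listed from these samples. Of its annotated exon bases, 0.92% overlap 9330175E14Rik on the opposite strand.

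The peptide transporter subunit Tap1 (chr17:34187553-34197225) was at 54.3, 39.0 and 83.1 CPM in RVO eyes, 32.7, 71.2 and 79.5 CPM in control laser-treated eyes and 2.72, 2.81 and 2.36 CPM in untreated eyes. All laser-treated pools were above all untreated pools, with log2 fold changes of 4.51 ± 0.31 (adjusted p = 1.9e-05) for RVO and 4.56 ± 0.34 (adjusted p = 3.4e-07) for control laser. Its partner subunit Tap2 (chr17:34203527-34216321) was at 24.6, 23.4 and 29.3 CPM in RVO eyes, 21.7, 28.2 and 29.96 CPM in control laser-treated eyes and 6.18, 4.61 and 7.21 CPM in untreated eyes. It rose less, by 2.13 ± 0.18 (adjusted p = 3.8e-05) and 2.16 ± 0.16 (adjusted p = 3.5e-07). Tapasin (Tapbp, chr17:33915899-33929292), which bridges TAP and the heavy chain, was at 235, 209 and 296 CPM in RVO eyes, 163, 259 and 262 CPM in control laser-treated eyes and 64.3, 60.6 and 64.4 CPM in untreated eyes. It had the highest untreated level of the 3 loading genes also per exon length (17.4 ± 0.60 CPM per kb, against 0.481 ± 0.0441 for Tap1), and its log2 fold change was 2.001 ± 0.13 (adjusted p = 1.3e-05) for RVO and 1.87 ± 0.15 (adjusted p = 4.6e-07) for control laser. Of the Tapbp exon bases, 24.9% overlap Gm19412 on the opposite strand.

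The immunoproteasome subunits rose in the same way. Psmb9, whose RefSeq start lies 225 bases from that of Tap1 on the opposite strand, was at 8.63, 8.49 and 13.5 CPM in RVO eyes, 5.83, 16.2 and 15.6 CPM in control laser-treated eyes and 0.727, 0.469 and 0.714 CPM in untreated eyes. Its log2 fold change was 4.02 ± 0.31 (adjusted p = 2.8e-05) for RVO and 4.31 ± 0.46 (adjusted p = 5.1e-06) for control laser. In GENCODE vM21, 5.79% of the Psmb9 exon bases overlap Tap1 on the opposite strand. Psmb8 was at 18.7, 14.7 and 18.3 CPM in RVO eyes, 10.8, 16.9 and 21.3 CPM in control laser-treated eyes and 1.998, 2.34 and 1.93 CPM in untreated eyes, a log2 fold change of 3.07 ± 0.17 (adjusted p = 7.1e-06) and 2.98 ± 0.26 (adjusted p = 1.0e-06). Psmb10, the subunit encoded outside the MHC at chr8:105935735-105938444, was at 24.6, 23.2 and 30.4 CPM in RVO eyes, 17.8, 29.4 and 31.0 CPM in control laser-treated eyes and 5.09, 6.88 and 6.57 CPM in untreated eyes, and rose by 2.10 ± 0.16 (adjusted p = 2.8e-05) and 2.09 ± 0.20 (adjusted p = 2.4e-06). No laser-treated pool overlapped an untreated pool for any of the 3.

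The constitutive subunits that these 3 replace had smaller log2 fold changes. Psmb5 rose by 0.86 ± 0.11 (adjusted p = 3.1e-04) with RVO and 0.73 ± 0.09 (adjusted p = 1.0e-05) with control laser. Psmb6 rose by 0.47 ± 0.09 (adjusted p = 0.0019) with RVO, and its value with control laser was 0.20 ± 0.06 (adjusted p = 0.010). Psmb7 was at -0.05 ± 0.08 (adjusted p = 0.61) with RVO and fell with control laser, at -0.24 ± 0.06 (adjusted p = 0.0039). The count ratio of Psmb8 to Psmb5 was 0.699, 0.493 and 0.539 in RVO eyes, 0.40, 0.578 and 0.779 in control eyes and 0.122, 0.142 and 0.107 in untreated eyes. For Psmb10 to Psmb7 the ratio was 0.336, 0.320 and 0.402, 0.286, 0.438 and 0.476 and 0.0629, 0.0857 and 0.0908. The ratios are descriptions without a test, and each immunoproteasome transcript stayed below its constitutive counterpart in counts, which were not corrected for gene length.

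**Figure D2:**
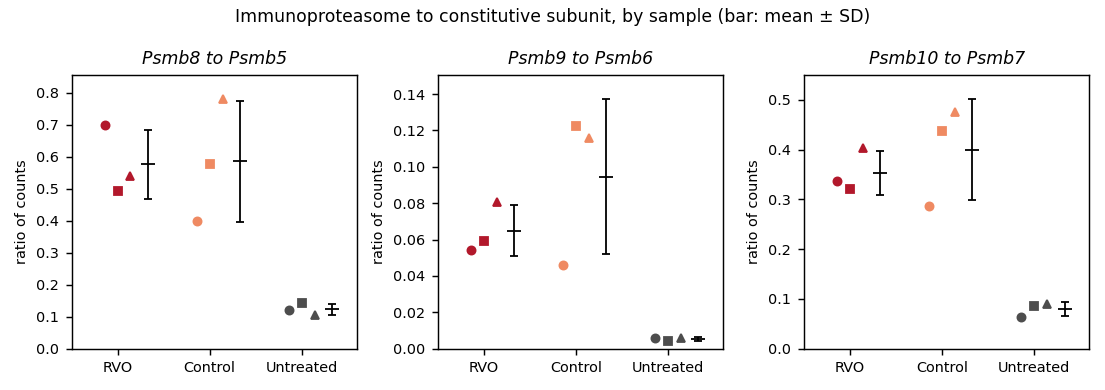
Ratio of the counts of each immunoproteasome subunit to the constitutive subunit it replaces (linear axes from 0), per retina pool with group mean and SD as a bar. The RVO and control pools overlap in all 3 ratios and lie above all untreated pools.

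Of the classical heavy chains, H2-K1 (chr17:33996017-34000347) was at 189.5, 119 and 152 CPM in RVO eyes, 85.2, 106 and 104 CPM in control laser-treated eyes and 20.5, 19.0 and 21.7 CPM in untreated eyes. The 3 groups did not overlap, and the log2 fold change against untreated eyes was 2.94 ± 0.17 (adjusted p = 8.7e-06) for RVO and 2.28 ± 0.09 (adjusted p = 8.1e-09) for control laser. H2-D1 (chr17:35262730-35267499) was at 406, 278 and 399 CPM in RVO eyes, 198, 319.7 and 272 CPM in control laser-treated eyes and 34.8, 30.6 and 38.3 CPM in untreated eyes. RVO and control pools overlapped, and the log2 fold change was 3.42 ± 0.17 (adjusted p = 4.2e-06) and 2.95 ± 0.15 (adjusted p = 3.5e-08). H2-D1 had the highest level per exon length of all heavy chains, with 140.0 ± 27.8 CPM per kb in RVO eyes against 52.3 ± 12.0 for H2-K1 (mean ± SD).

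Of the other heavy chain genes, the 6 with the highest mean level were read in every pool. H2-Q4 was at 28.1, 15.8 and 22.1 CPM in RVO eyes, 9.81, 18.0 and 18.7 CPM in control laser-treated eyes and 2.82, 2.27 and 2.43 CPM in untreated eyes, and rose by 3.17 ± 0.25 (adjusted p = 3.1e-05) with RVO and 2.66 ± 0.26 (adjusted p = 2.2e-06) with control laser. H2-T23, the mouse Qa-1 molecule that is read by natural killer cell receptors, was at 23.8, 15.7 and 16.6 CPM in RVO eyes, 9.04, 13.6 and 18.2 CPM in control laser-treated eyes and 2.72, 3.05 and 4.07 CPM in untreated eyes, and rose by 2.53 ± 0.23 (adjusted p = 5.2e-05) and 2.05 ± 0.25 (adjusted p = 1.5e-05). For both genes every laser-treated pool lay above every untreated pool. H2-T22 was at 11.4, 7.56 and 9.45 CPM in RVO eyes, 7.55, 8.24 and 9.67 CPM in control laser-treated eyes and 3.81, 3.59 and 4.64 CPM in untreated eyes, and rose by 1.27 ± 0.20 (adjusted p = 8.5e-04) and 1.09 ± 0.16 (adjusted p = 4.9e-05). H2-Q6 was at 15.0, 6.24 and 7.69 CPM in RVO eyes, 3.93, 5.61 and 5.73 CPM in control laser-treated eyes and 1.09, 1.88 and 1.000 CPM in untreated eyes, and rose by 2.90 ± 0.42 (adjusted p = 4.9e-04) and 1.96 ± 0.26 (adjusted p = 2.6e-05). These genes cannot be read as fully separate. Another gene, on either strand, also holds 36.4% of the 50-base runs of H2-Q4 transcripts, 35.0% of those of H2-Q6 and 53.5% of those of H2-T22. For H2-K1, H2-D1 and H2-T23 the shares were 9.63%, 12.8% and 14.5%. The gene sharing most was H2-Q7 for H2-Q6 and H2-T10 for H2-T22. For H2-Q4 it was Gm11131, which overlaps 19.1% of its exon bases on the opposite strand. A930015D03Rik overlaps 29.4% of the H2-T22 exon bases, also on the opposite strand.

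The annotated pseudogene H2-K2 changed least among the heavy chains that were called. It was at 17.9, 16.1 and 18.9 CPM in RVO eyes, 15.6, 16.5 and 17.0 CPM in control laser-treated eyes and 12.6, 10.2 and 9.14 CPM in untreated eyes, with a log2 fold change of 0.76 ± 0.15 (adjusted p = 0.0021) for RVO and 0.64 ± 0.12 (adjusted p = 3.7e-04) for control laser. The RVO call was lost without RVO pool 3 (0.72 (adjusted p = 0.010)), untreated pool 2 (0.72 (adjusted p = 0.013)) or untreated pool 3 (0.65 (adjusted p = 0.011)). H2-T24 went the other way, at 5.83, 4.88 and 4.31 CPM in RVO eyes, 4.70, 6.87 and 6.28 CPM in control laser-treated eyes and 5.63, 9.61 and 9.29 CPM in untreated eyes. Its log2 fold change was -0.68 ± 0.23 (adjusted p = 0.029) for RVO and -0.45 ± 0.20 (adjusted p = 0.059) for control laser, and untreated pool 1 lay among the laser-treated pools. Without that pool it was called lower in both, at -0.89 (adjusted p = 0.0078) and -0.66 (adjusted p = 0.0058), and for control laser also without the filter on low counts, at -0.43 (adjusted p = 0.0094).

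The remaining 7 heavy chain genes were low, with group means below 6 CPM. H2-Q7, H2-M3 and H2-Q2 rose in both comparisons, from 0.561 ± 0.219 CPM in untreated to 5.93 ± 1.71 in RVO eyes for H2-Q7 (mean ± SD), with log2 fold changes for RVO of 3.44 ± 0.35 (adjusted p = 9.7e-05), 2.15 ± 0.28 (adjusted p = 3.0e-04) and 2.63 ± 0.34 (adjusted p = 2.8e-04). H2-Q5 and H2-Q10 had at most 3 counts in each untreated pool, and were at least 5.42-fold and 5.25-fold higher in RVO eyes than this floor of 3 counts per library. H2-M5 was not called, at -1.25 ± 0.34 (adjusted p = 0.011) for RVO and 0.06 ± 0.39 (adjusted p = 0.89) for control laser. H2-Q10 and H2-T-ps could not be tested between control and untreated eyes, since they did not pass the filter on low counts there.

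The light chain B2m (chr2:122147686-122153083) was called higher than in untreated eyes with RVO but not with control laser. Directly between RVO and control eyes, it did not pass the threshold of 0.01. It was at 255, 137 and 180.0 CPM in RVO eyes, 68.8, 96.4 and 74.9 CPM in control laser-treated eyes and 77.2, 67.1 and 60.1 CPM in untreated eyes. Control and untreated pools overlapped, and the RVO pools lay above both. The log2 fold change against untreated eyes was 1.52 ± 0.21 (adjusted p = 4.4e-04) for RVO and 0.25 ± 0.12 (adjusted p = 0.076) for control laser, with a 95% interval of -0.00 to 0.51 for the latter. In control eyes B2m was called higher with scaling by library size alone, at 0.43 (adjusted p = 0.0062), and without the filter on low counts, at 0.28 (adjusted p = 1.2e-04). In untreated eyes B2m was the most abundant class I transcript per exon length (79.2 ± 10.01 CPM per kb, against 13.4 ± 1.49 for H2-D1). The count ratio of B2m to H2-D1, not corrected for exon length, was 2.22, 2.19 and 1.57 in untreated, 0.348, 0.302 and 0.275 in control and 0.628, 0.492 and 0.452 in RVO eyes. Per exon length, B2m was at 93.1 ± 16.9 CPM per kb in control and 222 ± 69.5 in RVO eyes. H2-D1 was at 102 ± 23.8 and 140.0 ± 27.8 CPM per kb. B2m shares no 50-base run with another gene.

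**Figure D3:**
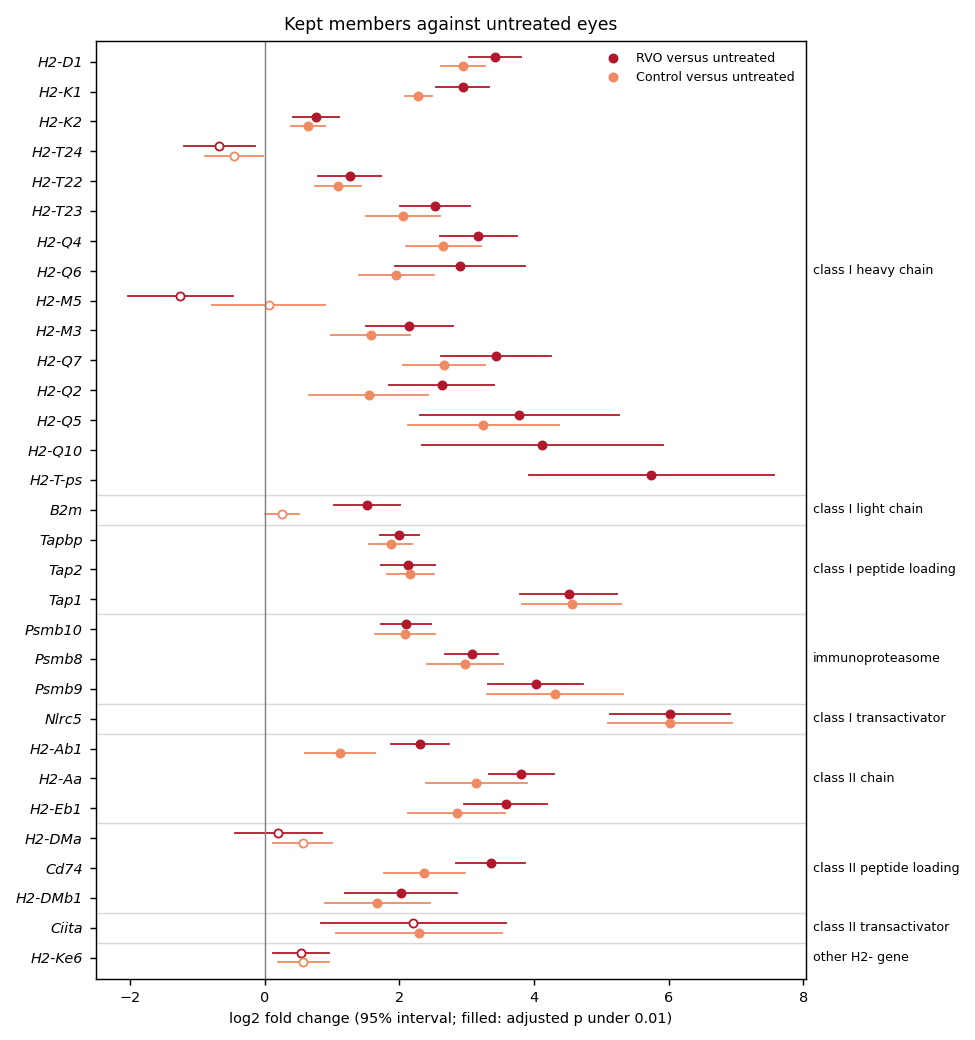
log2 fold change against untreated eyes of the 31 kept genes, by role, for RVO (dark) and control laser (light), with 95% intervals and filled points for adjusted p under 0.01. Class I and class II genes lie mostly to the right of 0 in both comparisons. B2m lies at 1.52 for RVO, which was called, and at 0.25 for control laser, which was not.

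Class II genes were far less abundant but also rose. Of the 7 kept class II genes, 5 were called higher in RVO and 6 in control laser-treated eyes, with 0 lower, and of the 3 with 10 or more counts in each untreated pool (H2-Ab1, Cd74 and H2-DMa) 2 were called in each. Among all genes tested, 27.4% were higher and 24.6% lower with RVO, and 27.2% and 25.2% with control laser. H2-Aa, H2-Eb1, H2-DMb1 and Ciita had fewer than 10 counts in every untreated pool and passed the filter only through the laser-treated pools. The alpha chain H2-Aa was at 6.79, 6.71 and 6.38 CPM in RVO eyes, 3.21, 5.91 and 3.56 CPM in control laser-treated eyes and 0.454, 0.469 and 0.50 CPM in untreated eyes, a log2 fold change of 3.81 ± 0.21 (adjusted p = 6.9e-06) for RVO and 3.14 ± 0.35 (adjusted p = 6.1e-06) for control laser. The untreated values rested on 5, 6 and 7 counts. The beta chain H2-Ab1, which pairs with it, was at 12.1, 11.8 and 10.2 CPM in RVO eyes, 3.89, 6.62 and 4.69 CPM in control laser-treated eyes and 2.36, 1.88 and 2.79 CPM in untreated eyes, a log2 fold change of 2.31 ± 0.19 (adjusted p = 3.4e-05) and 1.12 ± 0.24 (adjusted p = 0.0012). The call for control laser was lost without untreated pool 2, at 0.96 (adjusted p = 0.011). The I-E beta chain H2-Eb1 was at 5.83, 5.10 and 4.97 CPM in RVO eyes, 2.67, 4.24 and 2.89 CPM in control laser-treated eyes and 0.272, 0.547 and 0.50 CPM in untreated eyes, a log2 fold change of 3.58 ± 0.27 (adjusted p = 2.5e-05) and 2.86 ± 0.33 (adjusted p = 9.5e-06). Its alpha chain partner H2-Ea-ps, annotated as a polymorphic pseudogene, had 0 counts in all 9 pools.

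The invariant chain Cd74, which occupies the class II groove until peptide is loaded, was at 21.3, 18.0 and 17.4 CPM in RVO eyes, 7.60, 13.3 and 8.12 CPM in control laser-treated eyes and 1.91, 2.50 and 1.29 CPM in untreated eyes. It rose by 3.35 ± 0.22 (adjusted p = 1.5e-05) with RVO and 2.37 ± 0.28 (adjusted p = 9.7e-06) with control laser. Of the DM chains, which exchange the invariant chain remnant for peptide, H2-DMb1 was at 2.07, 2.04 and 1.58 CPM in RVO eyes, 1.49, 1.77 and 1.30 CPM in control laser-treated eyes and 0.182, 0.625 and 0.571 CPM in untreated eyes and rose by 2.03 ± 0.36 (adjusted p = 0.0014) and 1.68 ± 0.36 (adjusted p = 0.0013). Its partner H2-DMa was at 4.49, 4.63 and 2.99 CPM in RVO eyes, 4.88, 5.41 and 5.48 CPM in control laser-treated eyes and 3.996, 2.34 and 4.43 CPM in untreated eyes. The groups overlapped for RVO, and H2-DMa was not called, at 0.20 ± 0.28 (adjusted p = 0.54) for RVO and 0.57 ± 0.20 (adjusted p = 0.027) for control laser. It was called in control eyes with scaling by library size alone, at 0.74 (adjusted p = 0.0067), and without the filter, at 0.59 (adjusted p = 0.0027), and was at 0.32 (adjusted p = 0.13) without untreated pool 2. Its value for RVO turned to -0.04 without untreated pool 2. Of the H2-DMa exon bases, 10.4% overlap Brd2 on the opposite strand.

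The class II transactivator Ciita stayed at the edge of detection in all groups, at 0.542, 0.764 and 0.572 CPM in RVO eyes, 0.678, 0.606 and 0.711 CPM in control laser-treated eyes and 0.182, 0 and 0.214 CPM in untreated eyes. The untreated pools had 2, 0 and 3 counts, so that RVO eyes were at least 2.30-fold and control eyes at least 2.44-fold above a floor of 3 counts per library. The adjusted p was 0.011 for RVO and 0.0033 for control laser, and the latter call was lost without untreated pool 2, at 1.71 (adjusted p = 0.015), and by DESeq2, at 2.35 (adjusted p = 0.024). For RVO, Ciita was called at 2.41 (adjusted p = 0.0062) with scaling by library size alone, 2.27 (adjusted p = 0.0056) without the filter and 2.18 (adjusted p = 0.0043) with all 9 samples in 1 fit. The class II modulators H2-Oa and H2-Ob and the second DM beta gene H2-DMb2 were not kept. H2-Ob, with 14, 14 and 8 counts in RVO pools, reached 10 counts in 2 of the 9 samples and lay just outside the rule, and H2-T-ps, with 79, 29 and 30 counts in RVO pools and fewer than 10 in each of the others, just inside.

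The second question was whether vein occlusion added to the laser itself. At the threshold of 0.01, 1 of 23 class I genes (H2-T-ps) and 0 of 7 class II genes were higher in RVO than in control laser-treated eyes, and 0 were lower, beside 2.7% of all genes higher and 0.634% lower. At an adjusted p under 0.05, 7 class I genes and 3 class II genes were higher and 1 (H2-M5) lower, beside 17.5% of all genes higher and 17.1% lower. Beside H2-T-ps these were B2m, H2-K1, H2-M3, H2-Q2, H2-Q7 and H2-Q10 of class I and H2-Ab1, Cd74 and H2-Eb1 of class II. At an unadjusted p under 0.05, edgeR had 8 class I and 4 class II genes higher and 1 class I gene lower. The share over all genes was not computed for this threshold. DESeq2 called 3 class I and 2 class II genes higher at 0.01, beside 1881 of 29736 genes higher and 2162 lower. The number of calls depended on RVO pool 2. Without it, 6 class I and 2 class II genes were called higher at 0.01, beside 2942 of 17199 genes, and without any other pool the calls were 0 in both classes, beside at most 29 genes.

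**Figure D4:**
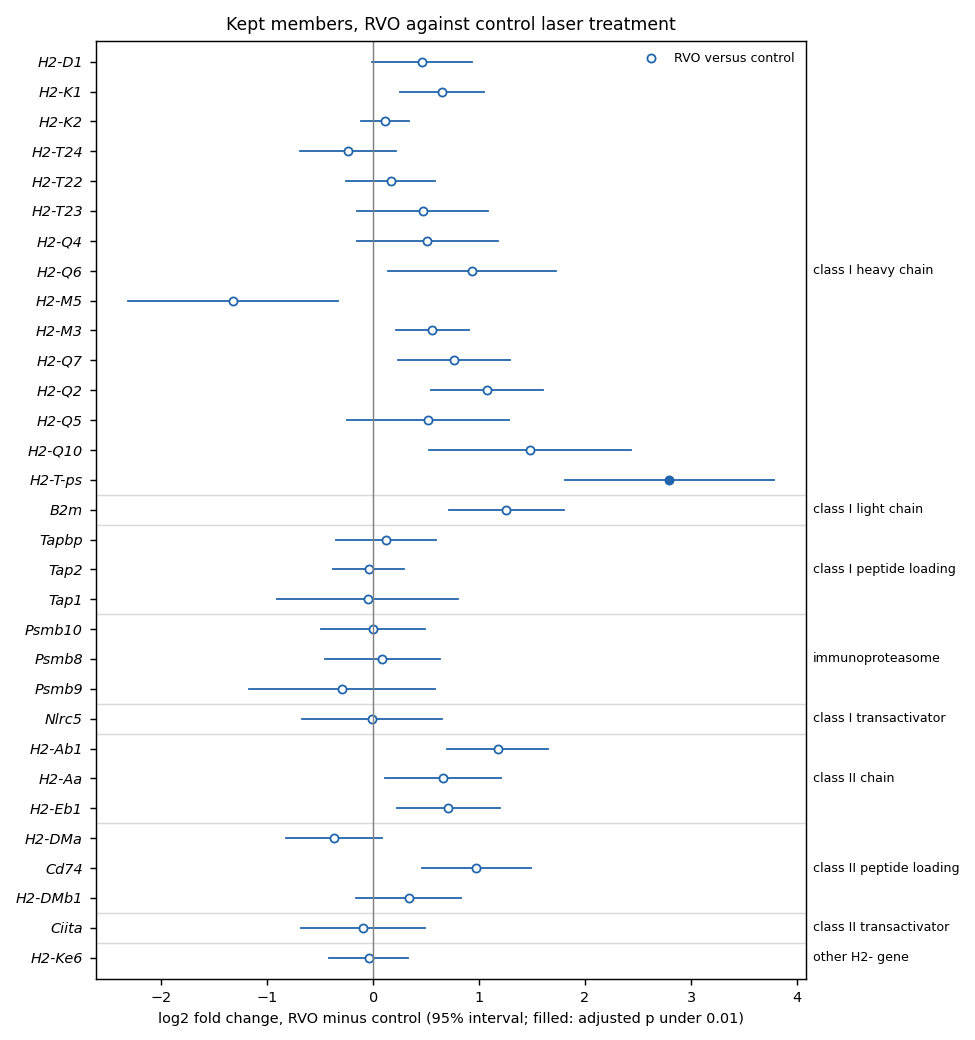
log2 fold change of RVO over control laser-treated eyes for the 31 kept genes by role, with 95% intervals and a filled point for adjusted p under 0.01. The intervals of Tap1, Tap2, Tapbp, the 3 immunoproteasome genes and Nlrc5 include 0, while those of B2m, H2-K1, H2-T-ps, H2-Ab1, H2-Aa, H2-Eb1 and Cd74 lie above it.

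The processing and transactivator genes did not pass the test between RVO and control eyes, and their fold changes had either sign. The log2 difference of RVO minus control was -0.05 for Tap1 (95% interval -0.91 to 0.80), -0.04 for Tap2 (-0.38 to 0.29), 0.12 for Tapbp (-0.35 to 0.59) and -0.01 for Nlrc5 (-0.67 to 0.65). For Psmb8 it was 0.09 (-0.46 to 0.63), for Psmb9 -0.29 (-1.17 to 0.59), and for Psmb10 the interval was -0.49 to 0.49. The intervals of Tap1 and Psmb9 were the widest of these 7. Control pool 1 was the lowest of the control pools for each of these 7 genes.

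For the light chain B2m, all RVO pools were above all control pools, and the log2 difference was 1.26 ± 0.23 (adjusted p = 0.012), which is 2.39-fold. It was called without RVO pool 2, at 1.43 (adjusted p = 1.1e-04). With all pools B2m was called by DESeq2, at 1.24 (adjusted p = 2.2e-06). It was also called without the filter on low counts (adjusted p = 7.8e-04) and with all 9 samples in 1 fit (adjusted p = 0.0020). It was not called with library-size scaling (adjusted p = 0.011) or the replicate block (adjusted p = 0.034). H2-K1 differed by 0.65 ± 0.17 (adjusted p = 0.025), again without overlap, and was called without RVO pool 2 at 0.78 (adjusted p = 4.4e-04). DESeq2 (adjusted p = 0.0028), no filter (adjusted p = 0.0058) and 1 fit of 9 samples (adjusted p = 0.0065) also called H2-K1. Library-size scaling (adjusted p = 0.020) and the replicate block (adjusted p = 0.065) did not. H2-D1 differed by 0.46 ± 0.20 (adjusted p = 0.12) with overlapping pools. H2-Q6 differed by 0.93 ± 0.34 (adjusted p = 0.069), by 1.15 (adjusted p = 0.0065) without RVO pool 2 and by 0.44 (adjusted p = 0.18) without RVO pool 1, its highest pool. H2-Q4 and H2-T23 were at 0.51 ± 0.28 (adjusted p = 0.20) and 0.47 ± 0.26 (adjusted p = 0.20). H2-T22, H2-K2 and H2-T24 were at 0.16 ± 0.18 (adjusted p = 0.51), 0.11 ± 0.10 (adjusted p = 0.40) and -0.24 ± 0.19 (adjusted p = 0.36).

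The annotated pseudogene H2-T-ps (chr17:36109234-36111658) was the only member called, and it passed the rule only through the RVO pools, in which it was high. It was at 2.52, 1.23 and 1.32 CPM in RVO eyes, 0.181, 0.303 and 0.251 CPM in control laser-treated eyes and 0, 0.0781 and 0 CPM in untreated eyes, which in counts was 79, 29 and 30 in RVO, 4, 6 and 6 in control and 0, 1 and 0 in untreated pools. The log2 difference of RVO minus control was 2.80 ± 0.42 (adjusted p = 0.0094), and RVO eyes were at least 6.20-fold above the floor of 3 counts per library in untreated eyes. The call was kept without RVO pool 2, at 2.97 (adjusted p = 3.1e-04), and lost without any other pool, with values from 2.35 (adjusted p = 0.016) without RVO pool 1 to 2.96 (adjusted p = 0.027) without control pool 2. With the replicate number as a block it was also lost, at 2.73 (adjusted p = 0.031). The study listed this gene among its top genes from these samples, and 29.4% of its 50-base runs occur elsewhere, most often in H2-T23.

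Of class II, H2-Ab1 differed most, by 1.17 ± 0.20 (adjusted p = 0.011) or 2.26-fold, and Cd74 by 0.97 ± 0.22 (adjusted p = 0.017). Both were called without RVO pool 2, at 1.13 (adjusted p = 0.0015) and 1.00 (adjusted p = 0.0041). With all pools both were called by DESeq2, at 1.16 (adjusted p = 4.5e-06) and 0.96 (adjusted p = 3.1e-04). Both were also called without the filter and with all 9 samples in 1 fit. Neither was called with the replicate block (adjusted p = 0.031 and 0.034). H2-Eb1 differed by 0.71 ± 0.21 (adjusted p = 0.035) and H2-Aa by 0.66 ± 0.24 (adjusted p = 0.065). In all 4 genes every RVO pool was above every control pool, but the share of all genes separated in this way was not computed. H2-DMb1 was at 0.33 ± 0.21 (adjusted p = 0.25), H2-DMa at -0.37 ± 0.19 (adjusted p = 0.17) and Ciita at -0.10 ± 0.25 (adjusted p = 0.79). H2-Ke6, the kept H2- gene outside both classes, was at -0.04 ± 0.16 (adjusted p = 0.84) between RVO and control, 0.54 ± 0.18 (adjusted p = 0.028) between RVO and untreated and 0.58 ± 0.17 (adjusted p = 0.010) between control and untreated eyes, and 70.5% of its 50-base runs occur in another gene, most often in Gm20427.

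Genes that work with the members were read from 7 lists of 51 genes in all. Of those tested, 25 of 47 were higher and 2 lower with RVO, 20 of 46 higher and 11 lower with control laser, and 2 of 48 higher and 0 lower between RVO and control. Over all genes tested, the shares were 27.4% higher and 24.6% lower with RVO, 27.2% and 25.2% with control laser, and 2.7% and 0.634% between RVO and control. Of the class I assembly and trimming partners, 7 of 8 rose with RVO and 4 of 8 with control laser. The chaperone Hspa5 rose by 1.72 ± 0.25 (adjusted p = 5.4e-04) with RVO and 0.40 ± 0.05 (adjusted p = 3.3e-05) with control laser, and the proteasome activator subunit Psme2 by 1.29 ± 0.16 (adjusted p = 2.5e-04) and 1.19 ± 0.13 (adjusted p = 7.4e-06). Of the class II processing partners, 5 of 8 rose in each comparison with untreated eyes, 0 fell with RVO and 2 (Ctss and March1) fell with control laser. The protease Ctsd and the thiol reductase Ifi30 were the partners called between RVO and control eyes. Ctsd was at 649.9, 757 and 859 CPM in RVO eyes, 446, 469.6 and 406 CPM in control laser-treated eyes and 209, 219 and 245 CPM in untreated eyes, and Ifi30 at 18.5, 17.9 and 20.6 CPM in RVO eyes, 11.3, 12.5 and 11.4 CPM in control laser-treated eyes and 4.36, 5.001 and 6.21 CPM in untreated eyes. The log2 difference of RVO minus control was 0.78 ± 0.11 (adjusted p = 0.0092) and 0.70 ± 0.10 (adjusted p = 0.0093), and neither call was kept when a pool other than RVO pool 2 was left out.

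Of 15 genes of interferon signalling to the MHC, 13 could be tested, and 7 rose and 1 fell with RVO while 6 rose and 3 fell with control laser. Beside them, 27.4% of all genes tested were higher and 24.6% lower with RVO, and 27.2% and 25.2% with control laser. Socs1, a feedback inhibitor of the pathway, had 1, 0 and 0 counts in untreated pools and was at least 25.3-fold above the floor in RVO and at least 14.8-fold in control eyes. The transcription factor Irf8 was at 24.2, 19.5 and 39.1 CPM in RVO eyes, 13.7, 19.8 and 17.8 CPM in control laser-treated eyes and 3.72, 1.41 and 2.71 CPM in untreated eyes, a log2 fold change of 3.44 ± 0.37 (adjusted p = 1.1e-04) and 2.74 ± 0.23 (adjusted p = 8.4e-07). Ifng, the gene of interferon gamma, had 0 counts in all 9 pools, and Ifnb1 had 1 count in 1 RVO pool. With 0 counts a level of up to 3 counts per library is allowed, which is 0.0956 CPM in the deepest RVO pool and 0.272 CPM in the shallowest untreated pool, and this covers counting error only. Irf1, a transcription factor that acts on class I promoters and was chosen here after its values were seen, rose by 2.91 ± 0.25 (adjusted p = 4.3e-05) with RVO and 2.84 ± 0.25 (adjusted p = 9.3e-07) with control laser.

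Of the 7 promoter factors that NLRC5 and CIITA need, 1 rose and 1 fell with RVO, and 1 rose and 4 fell with control laser. The shares of all genes tested were 27.4% higher and 24.6% lower with RVO, and 27.2% and 25.2% with control laser. Rfxank rose by 1.08 ± 0.14 (adjusted p = 3.3e-04) and 0.86 ± 0.12 (adjusted p = 3.2e-05), while Rfx5 was at 15.8, 16.6 and 15.1 CPM in RVO eyes, 23.4, 21.7 and 20.4 CPM in control laser-treated eyes and 31.9, 30.2 and 25.9 CPM in untreated eyes and fell, with a log2 fold change of -0.86 ± 0.11 (adjusted p = 2.4e-04) and -0.41 ± 0.09 (adjusted p = 0.0021). Of the 4 class I like genes outside the MHC, Fcgrt, the neonatal Fc receptor, rose by 1.25 ± 0.18 (adjusted p = 4.4e-04) and 1.05 ± 0.14 (adjusted p = 3.7e-05), and Cd1d1 was at -0.70 ± 0.34 (adjusted p = 0.098) and -0.25 ± 0.22 (adjusted p = 0.33). Of the costimulation genes, Cd274, which encodes the inhibitory ligand PD-L1, was at 20.5, 16.7 and 29.2 CPM in RVO eyes, 14.2, 24.4 and 29.8 CPM in control laser-treated eyes and 4.09, 4.53 and 4.43 CPM in untreated eyes. It rose by 2.38 ± 0.23 (adjusted p = 6.6e-05) with RVO and 2.41 ± 0.25 (adjusted p = 3.4e-06) with control laser. Cd40 rose by 1.96 ± 0.39 (adjusted p = 0.0026) with RVO and could not be tested with control laser.

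Markers of leukocytes moved with the same comparisons, and their part in the MHC results was not tested. In bulk retina, more cells of a type and more RNA per cell cannot be told apart. Among all genes tested, 27.4% were higher and 24.6% lower with RVO, and 27.2% and 25.2% with control laser. Between RVO and control eyes, 2.7% were higher and 0.634% lower. Of 9 monocyte and macrophage markers, 7 rose with RVO and 3 were also higher in RVO than in control eyes, and their summed level was 11.0 to 13.7 CPM without laser, 45.0 to 60.0 CPM with control laser and 105 to 119.9 CPM with RVO. Lyz2 was among them, at 48.7, 57.8 and 60.9 CPM in RVO eyes, 20.8, 30.4 and 21.8 CPM in control laser-treated eyes and 3.72, 2.50 and 3.07 CPM in untreated eyes. Of 6 neutrophil markers, all 5 that could be tested rose with RVO, from a sum of 0.469 to 1.18 CPM without laser to 8.12 to 24.5 CPM with control laser and 46.5 to 103 CPM with RVO. Between RVO and control eyes, 0 of these 5 were called. At an adjusted p under 0.05, 5 were higher, beside 17.5% of all genes. Microglia markers moved down, with 6 of 8 lower in each comparison with untreated eyes and a sum of 134 to 206 CPM without laser, 77.4 to 86.3 CPM with control laser and 47.3 to 76.1 CPM with RVO. Between RVO and control eyes 0 of these 8 were called, and 5 were lower at 0.05, beside 17.1% of all genes. Of 4 markers of leukocytes in general, 3 rose with RVO, 2 with control laser and 0 were called between RVO and control.

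Of the other leukocytes, the 7 dendritic cell markers summed to 10.5 to 12.1 CPM without laser, 11.7 to 12.8 CPM with control laser and 9.76 to 11.8 CPM with RVO. Of 4 that could be tested, Itgax rose in both comparisons and Flt3 fell with RVO. The 7 T cell and NK cell markers summed to at most 1.21 CPM in any pool and none passed the filter for a test, with Cd3e at 0 counts in all 3 untreated pools. The 5 B cell markers summed to 0.786 to 1.18 CPM without laser, 1.004 to 1.36 CPM with control laser and 1.70 to 4.91 CPM with RVO. Of 6 endothelial markers, 3 rose with RVO and 5 with control laser. Of 5 Müller cell markers, 3 fell and 1 rose in each, and the 5 rod markers all fell with RVO and 3 of them with control laser. Of 5 retinal pigment epithelium and choroid markers, 1 fell with RVO and 2 with control laser, and 0 rose. These counts stand beside 27.4% of all genes tested higher and 24.6% lower with RVO, and 27.2% and 25.2% with control laser. The pigment epithelium and choroid markers summed to 228, 444 and 361 CPM in RVO pools. Control pools were at 310 to 357 CPM and untreated pools at 326 to 359 CPM. RVO pool 2 was the highest RVO pool for each of these 5, such as Pmel at 17.2, 64.0 and 22.6 CPM. Their part in the RVO results was not tested.

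**Figure D5:**
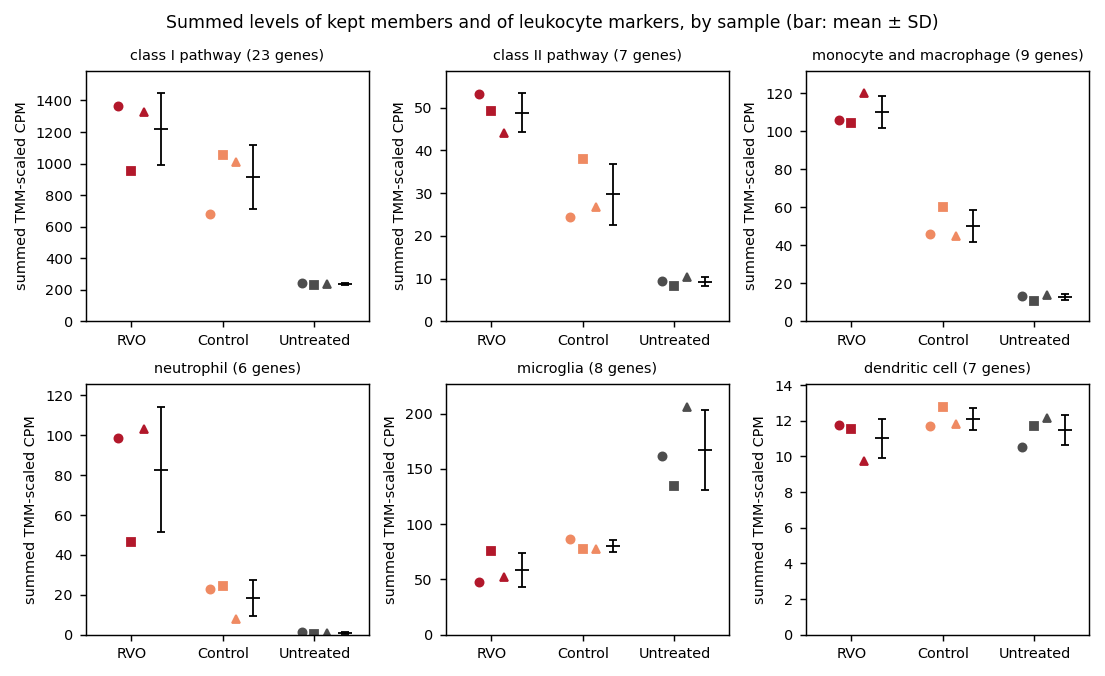
Summed TMM-scaled CPM (linear axes from 0) of the kept class I genes, the kept class II genes and 4 leukocyte marker lists, per retina pool with group mean and SD as a bar. Class I and class II sums are lowest in untreated eyes, as are monocyte and macrophage and neutrophil sums, whereas microglia markers are highest there.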

How the data were processed

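Poly(A) RNA of 9 mouse retina pools was sequenced by the authors as 50-base single reads from stranded libraries. They mapped the reads with STAR 2.5.2b and GENCODE vM11 (GRCm38) and counted them with featureCounts of Subread 1.5.1. The deposited values are raw counts per gene and sample. How multi-mapping reads were treated and which strand setting was used are not given in the sources used here, so near-identical H2- genes and antisense neighbours may share reads. Of 48679 names, 92 spike-in names were left out. Groups were taken from the sample labels, and n counts pools.

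Each pair of groups was fitted with edgeR 4.0.16 (R 4.3.3): filterByExpr, TMM, glmQLFit and glmQLFTest without a block, Benjamini-Hochberg adjustment over all genes tested, threshold 0.01. Intervals are 95% intervals of the fit. Levels are counts scaled by library total and TMM factor over all 9 samples. Where pools of 2 groups are said to overlap or not, the share of all genes doing so was not computed. A floor of 3 counts per library was used where a group was at 0 to 3 counts, and floors cover counting error only. The intervals also include the spread between pools as the fit estimates it. Alternatives were DESeq2 1.42.0, library-size scaling, no filter on low counts, 1 fit of all 9 samples, a replicate block, a threshold of 0.05, the minimum of 10 counts in all 9 columns, and leaving out each pool. Every kept gene is accounted for. Values in every pool are given for 18 leading members and the 6 other heavy chains of highest mean CPM, and partners are named when called between RVO and control, or else as the 2 with the largest change between RVO and untreated per list. The members and lists were chosen with earlier results of these data known. Positions, exon lengths, overlaps and shared 50-base runs are from GENCODE vM21 (GRCm38), in which all 55 members matched 1 gene each, and promoters are from RefSeq (GRCm38.p6).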

Additional observations from a re-analysis of the deposited data

How the results depend on the processing

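Over the 24 genes read in every pool, 242 of the alternative values for control against untreated eyes, 253 for RVO against untreated and 220 for RVO against control kept their direction and their side of the threshold, while 0, 1 and 20 turned sign. With 10 or more counts required in all 9 columns, class I genes called were 13 for RVO against untreated and 0 for RVO against control, and class II genes were 2 in each comparison with untreated eyes, because fewer genes remained. At an adjusted p under 0.05, RVO against untreated had 2 class I and 4 partner genes lower, and RVO against control had 7 class I genes higher and 1 lower, 3 class II genes higher, and 19 partner genes higher and 1 lower. Without a filter on low counts, 1 class I gene was lower for control against untreated. For RVO against control the higher calls in class I, class II and partner genes were 3, 2 and 10 by DESeq2, 3, 2 and 6 without the filter, and 4, 2 and 10 with all 9 samples in 1 fit, with 1 partner gene lower in each. Calls over all genes rose too, from 456 higher and 107 lower of 16874 in the main fit. They were 1881 and 2162 of 29736 by DESeq2 and 1569 and 1740 of 29742 without the filter. With all 9 samples in 1 fit they were 1832 and 2021 of 17112, and with library-size scaling 690 and 202 of 16874. Scaling by library size alone, which moved the median of all genes to 0.22, 0.19 and 0.07 for RVO against untreated, control against untreated and RVO against control, gave 2 partner genes lower for control against untreated and 1 class II gene higher for RVO against control, and made B2m and H2-DMa called in control eyes at 0.43 and 0.74. Without the filter on low counts these were called at 0.28 and 0.59. Apart from the setting's own construction, the cause was not tested.

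No source used here says whether same-numbered RVO and control pools hold eyes of the same mice, and the numbers were not treated as pairs. The deviations of same-numbered RVO and control pools correlated at -0.13, -0.15 and 0.07, and with a replicate block 0 class I, 0 class II and 0 partner genes, and 0 of all genes, were called between RVO and control. The block left the class I and class II calls against untreated eyes within 1.5 times.

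Leaving out 1 pool at a time, RVO against control gave 0 to 6 class I genes, 0 to 2 class II genes and 0 to 16 partner genes higher and 0 to 2 partner genes lower, each maximum without RVO replicate 2. Without that pool 2942 of all 17199 genes tested were called higher and 3315 lower. Against untreated eyes, class I genes lower were 0 to 1 in both comparisons, the maximum without untreated replicate 1, and partner genes lower were 2 to 4 for RVO (4 without RVO replicate 2) and 7 to 10 for control laser (7 without untreated replicate 2). The RVO minus control value turned sign for Tap1 (-0.40 to 0.18), Tap2 (-0.17 to 0.0467), Tapbp (-0.0750 to 0.23), Psmb8 (-0.14 to 0.32), Psmb10 (-0.21 to 0.14), Nlrc5 (-0.28 to 0.17) and H2-T22 (-0.00850 to 0.28), and the RVO minus untreated value for H2-DMa (-0.0379 to 0.39). Other settings turned it for Tap2 (0.00707 by library size alone), Psmb10 (-0.012 by DESeq2, -0.015 without the filter and -0.00184 with all 9 samples in 1 fit) and Nlrc5 (0.038 by library size alone and 0.030 with the replicate block), all values near 0. Low counts in untreated pools limit the fold changes of H2-Q5, H2-Q10, H2-T-ps, Ciita and Nlrc5.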

Other observations

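Control replicate 1 had the lowest value of the control pools in 19 of 23 kept class I genes (82.6%) and 5 of 7 kept class II genes (71.4%), beside 30.9% of the 16874 genes tested between RVO and control eyes. Its median log2 ratio to the mean of the other control pools was -0.53 in class I and -0.42 in class II genes, beside 0.00 over all genes tested. The summed class I level was 680.0, 1056 and 1007 CPM in control pools 1, 2 and 3, against 1366, 954 and 1329 CPM in RVO pools. Of the 9 monocyte and macrophage markers, 8 were also lowest in control pool 1, and Cd68, at 15.0, 14.7 and 10.3 CPM, was not. Their sum was 45.9, 60.0 and 45.0 CPM in control pools 1, 2 and 3, and their part in the pattern was not tested. The pattern was noticed after the values were seen.

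The class II pathway transcripts did not have equal counts, which were not corrected for exon length here. The count ratio of Cd74 to H2-Ab1 was 1.76, 1.52 and 1.71 in RVO, 1.95, 2.02 and 1.73 in control and 0.808, 1.33 and 0.462 in untreated pools, and that of H2-DMa to H2-DMb1 was 2.17, 2.27 and 1.89, 3.27, 3.06 and 4.23 and 22.0, 3.75 and 7.75. The untreated H2-DMb1 values rest on 2, 8 and 8 counts. Per exon length, H2-DMa was at 1.17 CPM per kb in RVO, 1.52 in control and 1.04 in untreated eyes. H2-DMb1 was at 1.13, 0.904 and 0.273 CPM per kb, so the 2 were close in RVO eyes. Cd86, a costimulatory ligand chosen after its values were seen, was at 0.924, 0.934 and 0.835 CPM in RVO eyes, 0.678, 0.404 and 0.711 CPM in control laser-treated eyes and 1.63, 1.56 and 1.07 CPM in untreated eyes. It fell with control laser, at -1.19 ± 0.32 (adjusted p = 0.0051), and was at -0.61 ± 0.26 (adjusted p = 0.065) with RVO and 0.57 ± 0.27 (adjusted p = 0.13) between RVO and control eyes. Ctss, the protease that trims the invariant chain, also chosen after its values were seen, was at 26.7, 33.7 and 29.9 CPM in RVO eyes, 23.0, 29.2 and 28.4 CPM in control laser-treated eyes and 35.1, 30.8 and 44.1 CPM in untreated eyes, with a log2 fold change of -0.26 ± 0.14 (adjusted p = 0.15) for RVO and -0.43 ± 0.13 (adjusted p = 0.0095) for control laser.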
